A study of Rattus norvegicus with 82 samples.

Results

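The 6 genes described here are those of dopamine receptors and of proteins enriched in the striatum: Drd1, Drd2, Adora2a, Gpr6, Ppp1r1b and Rgs9. They were chosen by gene symbol in the platform's annotation, and 9 of the 31042 probe sets tested carried 1 of these symbols. The choice was made with earlier results of these data known. The whole annotation named 14217 genes. For Drd1, Adora2a and Rgs9, which had 2 probe sets each, the probe set with the higher mean log2 signal was used and the other is given beside it.

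Most neurons of the striatum are GABAergic projection cells that fall into a population with the D1-type receptor encoded by Drd1 and another with the D2-type receptor encoded by Drd2. The D1-type receptor raises cyclic AMP through stimulatory G proteins and the D2-type receptor lowers it through inhibitory ones. The adenosine receptor Adora2a and the orphan receptor Gpr6 accompany Drd2 in those cells, while Ppp1r1b, whose product inhibits protein phosphatase 1 once protein kinase A has phosphorylated it, and Rgs9, which speeds the inactivation of inhibitory G proteins, are used by both populations.

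The samples were total RNA of rat brain on 82 arrays, of which 80 could be placed in a group. Per the labels, animals were ADX, pADX or Sham, and tissue was taken at PM or AM; ADX commonly stands for adrenalectomy, while the letter p, the strain, the sex and the age are explained by none of the sources used here. The regions were the septum, amygdala, hypothalamus, dorsal raphe and locus coeruleus with 12 arrays each (4 ADX, 4 pADX and 4 Sham), the frontal cortex with 10 (3 ADX, 4 pADX and 3 Sham) and the hippocampus with 10 (4 ADX, 2 pADX and 4 Sham). Nothing in the labels ties arrays to separate animals, so p-values measure the spread between arrays, which may be technical, and both hippocampal pADX arrays carry the label PM.

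Signals are on a log2 scale after quantile normalization over 82 arrays, with a floor at 4, below which no array is ordered. All septum, amygdala and frontal cortex arrays were deposited on 1 common scale, no hypothalamus or hippocampus array was, and in the locus coeruleus 0 of 4 ADX, 3 of 4 pADX and 4 of 4 Sham arrays were. In the dorsal raphe 0 of 4 ADX, 0 of 4 pADX and 2 of 4 Sham arrays were on it. Region was read from titles and descriptions, and the source name of the septum, locus coeruleus and dorsal raphe arrays gave frontal cortex instead, while that of the hypothalamus arrays gave left hippocampi. The arrays labelled septum had a mean log2 signal of 6.13 for Zic1, a transcription factor of the septum, higher than in each of the 6 other regions, and 7 of 10 measured septum and basal forebrain markers were higher in septum than in amygdala, as were 13.2% of all probe sets. Of these 10 markers only Zic1 was higher in the septum than in all 6 other regions. The glutamate transporter gene Slc17a7, which marks cortical projection neurons, averaged 8.42 in the septum and 9.84 in the frontal cortex.

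The sequences just upstream of the genes are shown as a description, and their part in the levels of the genes was not tested. RefSeq promoter windows of assembly GRCr8 matched 4 of the 6 genes, and in 3 of them (Drd2, Rgs9 and Gpr6) the window ended at the outermost annotated start of the gene. The 250 bases before that start follow 5′ to 3′ on the gene's strand, with capitals for a GC box (GGGCGG on either strand) or a cyclic AMP response element (TGACGTCA, a palindrome).
Drd2, chr8:58605153-58605402, plus strand: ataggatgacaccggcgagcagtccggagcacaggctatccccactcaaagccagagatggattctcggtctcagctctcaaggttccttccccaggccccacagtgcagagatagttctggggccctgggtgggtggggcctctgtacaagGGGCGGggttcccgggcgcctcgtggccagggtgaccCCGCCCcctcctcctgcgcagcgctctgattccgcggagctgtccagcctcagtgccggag
Rgs9, chr10:94770388-94770637, minus strand: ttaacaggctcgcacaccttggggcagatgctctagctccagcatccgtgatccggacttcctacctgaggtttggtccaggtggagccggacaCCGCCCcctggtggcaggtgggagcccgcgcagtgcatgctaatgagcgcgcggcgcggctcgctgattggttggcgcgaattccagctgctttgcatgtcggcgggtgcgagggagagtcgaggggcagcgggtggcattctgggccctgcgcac
Gpr6, chr20:46075252-46075501, minus strand: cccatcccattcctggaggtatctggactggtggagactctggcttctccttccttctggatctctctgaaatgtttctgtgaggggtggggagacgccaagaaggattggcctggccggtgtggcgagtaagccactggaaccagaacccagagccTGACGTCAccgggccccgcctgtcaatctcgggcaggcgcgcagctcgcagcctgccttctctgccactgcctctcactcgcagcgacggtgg
The GC box occurred 2 times before Drd2, at bases 98 to 93 and 61 to 56 upstream of the start, and 1 time before Rgs9, at bases 156 to 151. The cyclic AMP response element stood only before Gpr6, at bases 93 to 86. A TATA box, searched as TATAAA on both strands, was in none of the 3. Among 33469 promoters of the same length the GC box was found in 30.5%, the cyclic AMP response element in 1.59% and the TATA box in 12.9%. No 2 of the 3 motifs overlapped in these windows, and a match describes letters, not binding.

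The first comparison asked how the genes differ between regions. Drd1, Adora2a, Gpr6, Ppp1r1b and Rgs9 were higher in the septum than in each of the 6 other regions, and Drd2 was higher in the septum than in 4 of them. The F test over 7 regions, adjusted over all probe sets, passed for 6 of 6 genes, where 65.3% of all probe sets passed. Of 126 tests of a gene between a pair of regions 80 passed in limma. The matching share over all probe sets and pairs was not counted, so the 80 does not set these genes apart. Of the 36 tests that involved the septum, 34 passed with the septum higher. The share of all probe sets called higher in the septum was 13.2% against the amygdala, 18.3% against the frontal cortex, 14.7% against the hypothalamus, 11.8% against the hippocampus, 17.3% against the dorsal raphe and 19.2% against the locus coeruleus. Levels of different genes are not set against each other, because probe sets differ in how brightly they bind.

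**Figure D1:**
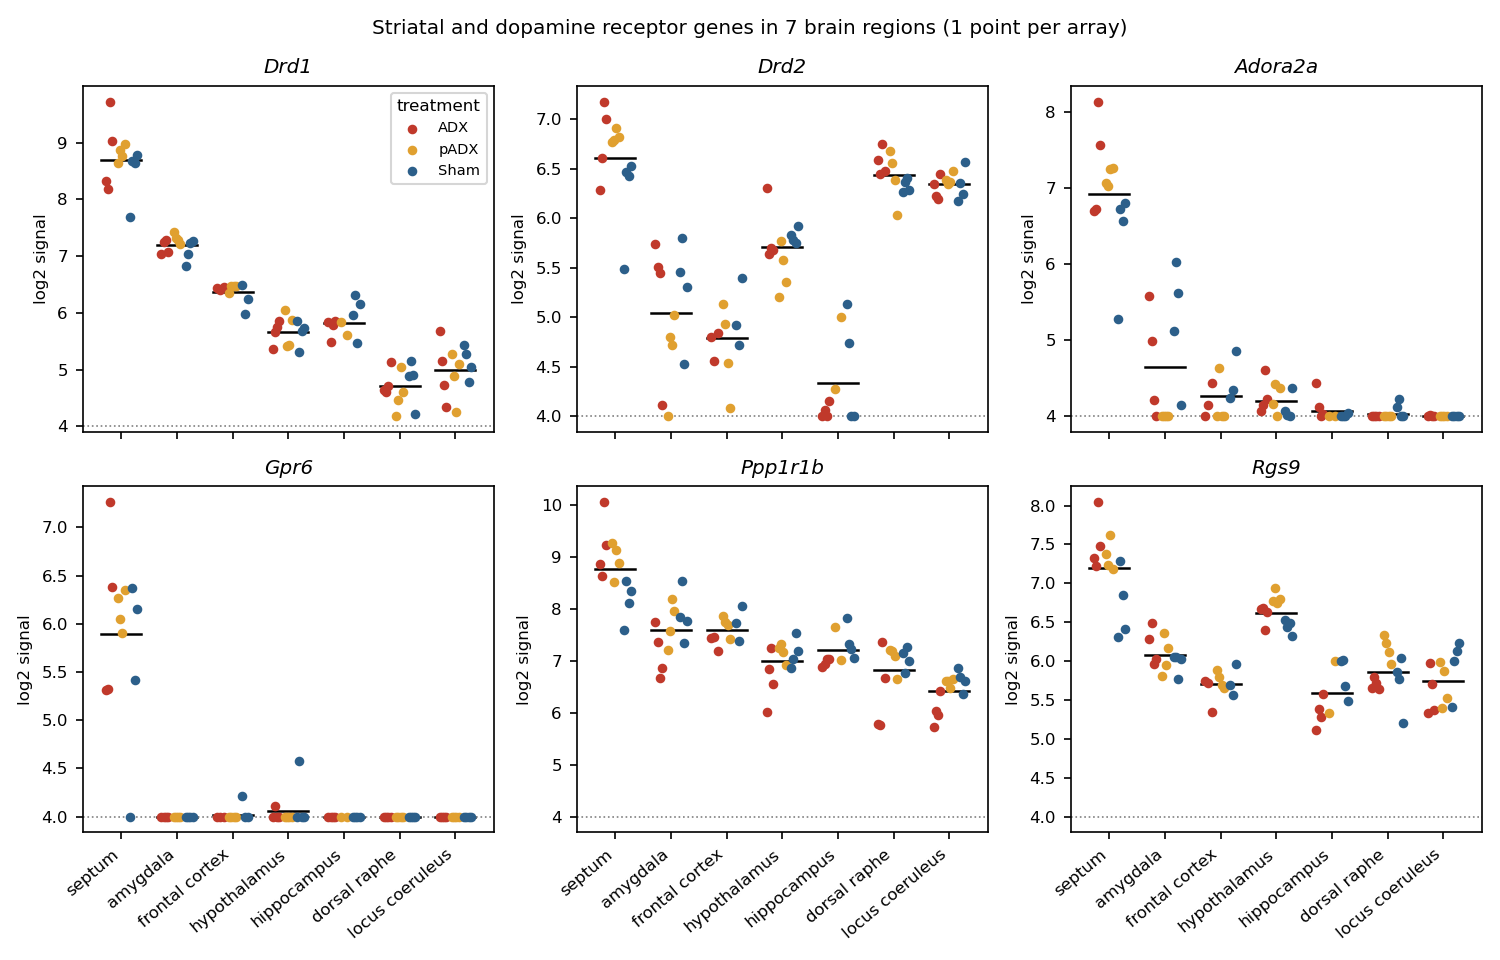
Log2 signal of each gene (vertical axis) in the arrays of 7 regions (horizontal axis), 1 point per array, coloured ADX, pADX or Sham, with the region's mean as a black bar and the floor as a dotted line. The septum has the highest mean for all 6 genes, Drd2 is nearly as high in the dorsal raphe and locus coeruleus, and nearly all Gpr6 points outside the septum lie at the floor.

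Drd1 showed a graded pattern. Its log2 signal in the septum ran from 7.68 over a median of 8.72 to 9.72, and in the amygdala from 6.84 over 7.24 to 7.43. The lowest septum array lay above the highest array of every other region, so the septum overlapped with none of them, a separation that 1 of 6 genes and 0.110% of all probe sets showed. The fitted septum signal was 2.84-fold that of the amygdala (1.5 log2 units, SE 0.14, limma adjusted p = 3.89e-14) and 15.8-fold that of the dorsal raphe (3.98, SE 0.14, adjusted p = 2.34e-35). Medians were 6.44 in the frontal cortex, 5.84 in the hippocampus, 5.71 in the hypothalamus, 5.07 in the locus coeruleus and 4.68 in the dorsal raphe. Of neighbours in the order of means, the hippocampus and hypothalamus (0.17, SE 0.15, adjusted p = 0.431) and the locus coeruleus and dorsal raphe (0.28, SE 0.14, adjusted p = 0.25) did not pass, while the others did. The second Drd1 probe set gave the same order of regions, with septum minus amygdala at 1.52.

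Drd2 was the exception among the receptors. It ran from 5.49 over a median of 6.69 to 7.18 in the septum, from 6.03 over 6.43 to 6.75 in the dorsal raphe and from 6.17 over 6.35 to 6.57 in the locus coeruleus. These 3 regions overlapped: 6 of 12 septum arrays lay above the highest dorsal raphe array and 7 of 12 above the highest locus coeruleus array. The septum differed from the dorsal raphe by 0.17 (SE 0.16, adjusted p = 0.478) and from the locus coeruleus by 0.26 (SE 0.16, adjusted p = 0.20). On the deposited values, without normalization between arrays, both differences passed (0.66 and 0.55, adjusted p = 0.000617 and 0.00565), on a scale where the median of all probe sets was itself 0.28 higher in septum than in dorsal raphe and 0.11 higher than in locus coeruleus. Septum minus locus coeruleus also passed with a floor of 32 (adjusted p = 0.0397).

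The D2-type receptor is also the autoreceptor of dopamine neurons. Beside its level stood that of Th, the rate-limiting enzyme of catecholamine synthesis, which averaged 4.48 in the septum, 8.54 in the dorsal raphe and 8.74 in the locus coeruleus. The dopamine transporter gene Slc6a3 averaged 4.10 in the septum, 7.15 in the dorsal raphe and 4.6 in the locus coeruleus, and Dbh, which makes noradrenaline from dopamine, 4.14 in the septum, 4.13 in the dorsal raphe and 8.34 in the locus coeruleus. In the hypothalamus Drd2 had a median of 5.73, with Th at a mean of 8.77 and Slc6a3 at 7.69. The part of these cells in the Drd2 level was not tested. Drd2 was lowest in the hippocampus, with a median of 4.11 and 4 of 10 arrays at the floor, and the septum mean was at least 4.83-fold higher than the mean there (fitted difference 2.28, SE 0.17, adjusted p = 6.62e-18).

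Adora2a and Gpr6 were higher in the septum than elsewhere, and Gpr6 was at the floor in nearly all other arrays. Adora2a, which raises cyclic AMP in striatal neurons, ran from 5.28 over 6.92 to 8.14 in the septum and from the floor over 4.18 to 6.03 in the amygdala, where 5 of 12 arrays were at the floor. In the septum 11 of 12 arrays exceeded the highest amygdala array, and all 12 exceeded the highest array of each of the 5 other regions. Septum minus amygdala was at least 2.29 log2 units (SE 0.18, adjusted p = 8.83e-17), which is at least 4.88-fold. At the floor lay 2 of 12 arrays of the hypothalamus, 4 of 10 of the frontal cortex, 6 of 10 of the hippocampus, 10 of 12 of the dorsal raphe and 11 of 12 of the locus coeruleus. No pair of neighbours below the septum in the order of regions passed. The amygdala exceeded the hypothalamus (adjusted p = 0.0463), hippocampus (0.0129), dorsal raphe (0.00375) and locus coeruleus (0.00238). None of these 4 differences passed with a floor of 32 (adjusted p from 0.245 to 0.326). With a floor of 8 those to the hypothalamus (0.443) and hippocampus (0.064) did not pass. In the second Adora2a probe set they were only 0.003 to 0.05 and did not pass. The second Adora2a probe set was above the floor in 11 of 12 septum arrays and in 0 of 12 arrays of the hypothalamus, dorsal raphe and locus coeruleus.

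Gpr6, an orphan receptor that couples to stimulatory G proteins, ran in the septum from the floor over 6.10 to 7.26. It lay at the floor in 12 of 12 arrays of the amygdala, dorsal raphe and locus coeruleus, in 10 of 10 of the hippocampus, in 10 of 12 of the hypothalamus and in 9 of 10 of the frontal cortex. The highest amygdala array had a deposited intensity of 13, against a septum median of 84.4. The 1 septum array at the floor was Sham AM replicate 1, so 11 of 12 septum arrays lay above the highest array of each other region. Septum minus amygdala was at least 1.90 (SE 0.13, adjusted p = 1.6e-19), or at least 3.73-fold, and septum minus hypothalamus at least 1.84 (SE 0.13, adjusted p = 1.28e-19).

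The intracellular proteins were less restricted. Ppp1r1b ran from 7.59 over 8.75 to 10.07 in the septum, from 6.67 over 7.67 to 8.54 in the amygdala and from 7.18 over 7.57 to 8.07 in the frontal cortex. The septum overlapped with both, with 8 of 12 arrays above the highest amygdala array and 11 of 12 above the highest frontal cortex array. The septum was 2.26-fold higher than the amygdala (1.18, SE 0.18, adjusted p = 1.63e-07) and 5.11-fold higher than the locus coeruleus (2.35, SE 0.18, adjusted p = 1.95e-18), which had the lowest mean. Below the septum no neighbours in the order of means passed, from the frontal cortex and amygdala (-0.03, SE 0.19, adjusted p = 1) to the dorsal raphe and locus coeruleus (0.41, SE 0.18, adjusted p = 0.169).

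Rgs9 ran from 6.31 over 7.26 to 8.05 in the septum and from 6.32 over 6.65 to 6.94 in the hypothalamus, the region with the next highest mean. Of the septum arrays 9 of 12 lay above the highest hypothalamus array. The difference was 0.58 (SE 0.13, adjusted p = 0.000142), a 1.49-fold higher septum signal, and the hypothalamus in turn exceeded the amygdala by 0.54 (SE 0.13, adjusted p = 0.0003). That last difference did not hold on the deposited values, where amygdala minus hypothalamus was 0.0472 (adjusted p = 0.904) and the median of all probe sets was 0.36. From the amygdala down to the hippocampus no neighbours passed (differences of 0.06 to 0.22). The second Rgs9 probe set was dim, with septum values from the floor to 5.45, showed no region difference that passed the F test (adjusted p = 0.162) and had r = 0.381 with the first over the septum arrays, so the 2 probe sets disagree and the Rgs9 results rest on 1 of them. The corresponding r was 0.939 for Drd1 and 0.903 for Adora2a.

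Within the septum the 6 genes varied together from array to array. Each array's value is given in the order Drd1, Drd2, Adora2a, Gpr6, Ppp1r1b and Rgs9. The ADX PM arrays read 9.72, 7.18, 8.14, 7.26, 10.07 and 8.05 in replicate 1 and 9.02, 7.0, 7.58, 6.38, 9.24 and 7.48 in replicate 2. The ADX AM arrays read 8.33, 6.29, 6.71, 5.32, 8.86 and 7.32 in replicate 1 and 8.19, 6.61, 6.73, 5.32, 8.64 and 7.22 in replicate 2. In ADX the PM arrays thus read above the AM arrays, with only 2 arrays at each time. The share of all probe sets with such an order was not counted, and the 6 genes varied together. Nothing about time of day is read from this order. Over all septum arrays PM against AM passed for 0 of 6 genes in limma.

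The pADX PM arrays read 8.76, 6.91, 7.25, 5.90, 9.13 and 7.62 in replicate 1 and 8.98, 6.83, 7.26, 6.35, 8.90 and 7.18 in replicate 2. The pADX AM arrays read 8.65, 6.77, 7.07, 6.26, 9.28 and 7.37 in replicate 1 and 8.87, 6.80, 7.03, 6.05, 8.53 and 7.23 in replicate 2. The 4 pADX arrays lay close together. The Sham PM arrays read 8.65, 6.43, 6.57, 5.41, 8.12 and 6.85 in replicate 1 and 8.79, 6.52, 6.81, 6.16, 8.35 and 6.42 in replicate 2. The Sham AM arrays read 7.68, 5.49, 5.28, 4.0 (the floor), 7.59 and 6.31 in replicate 1 and 8.68, 6.47, 6.74, 6.37, 8.55 and 7.28 in replicate 2.

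ADX PM replicate 1 was the highest and Sham AM replicate 1 the lowest of the 12 arrays for each of the 6 genes. As the mean deviation of the 6 genes from their own septum means, these stood at 1.05 and -1.29, and the other 10 arrays ran without a gap of that size from -0.35 to 0.43. The range between the extreme arrays was 3.23-fold for Drd2, 3.33-fold for Rgs9, 4.11-fold for Drd1, 5.55-fold for Ppp1r1b and 7.27-fold for Adora2a. It was at least 9.60-fold for Gpr6, whose lowest array was at the floor. The SD over the 12 arrays was 0.44 for Drd2, 0.48 for Rgs9, 0.50 for Drd1, 0.63 for Ppp1r1b, 0.68 for Adora2a and 0.81 for Gpr6. Of 18625 probe sets above the 40th percentile of signal in the septum, whose median SD was 0.22, 6.4% had an SD at least that of Drd2.

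**Figure D2:**
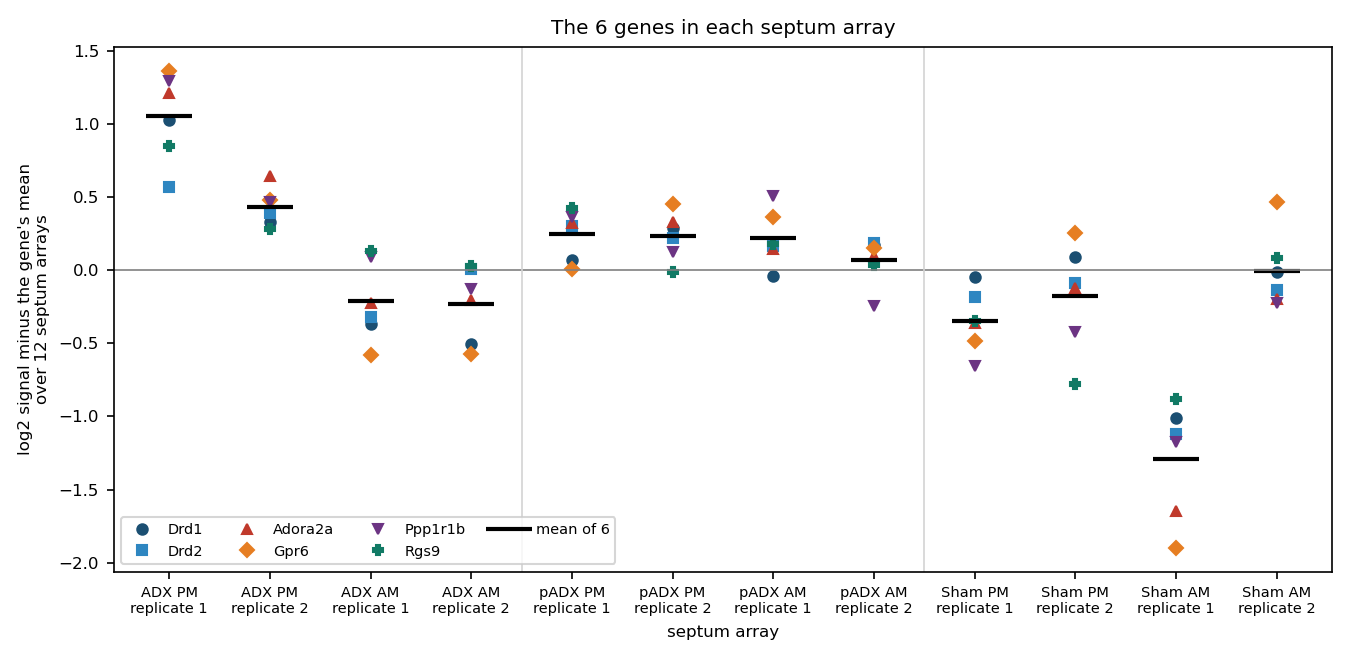
Log2 signal of each gene minus its own mean over the 12 septum arrays (vertical axis), for each septum array (horizontal axis, ADX, then pADX, then Sham), with the mean of the 6 genes as a black bar. All 6 genes are highest in ADX PM replicate 1 (mean 1.05) and lowest in Sham AM replicate 1 (mean -1.29).

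All 15 pairs of genes were positively correlated over the 12 septum arrays. Pearson's r ran from 0.672 for Drd1 and Rgs9 to 0.969 for Drd2 and Adora2a, with a median of 0.87, and Spearman's rho from 0.476 to 0.958. In two-sided permutation tests with 100000 resamples, adjusted by Benjamini-Hochberg over the 15 pairs, p lay between 0.00015 and 0.0189 for r and between 0.00015 and 0.122 for rho. The 6 genes were chosen with earlier results of these data known, so these p-values are a description and no independent check. A single principal component held 89.0% of the variance of the 6 genes. Each gene's r with the mean of the other five lay between 0.815 (Rgs9) and 0.985 (Adora2a).

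The closest pair over the 12 arrays was that of 2 receptors of the D2-type cells. Drd2 and Adora2a had r = 0.969 (permutation p = 1e-05, the smallest these resamples can give, adjusted p = 0.00015) and rho = 0.958 (adjusted p = 0.00015). Without the 2 arrays farthest from the median, ADX PM replicate 1 and Sham AM replicate 1, r was 0.919. Gpr6, the third receptor of those cells, had r = 0.889 with Drd2 (adjusted p = 0.00075), 0.576 without the 2 arrays, and r = 0.921 with Adora2a (adjusted p = 0.000575), 0.635 without them. Drd1, the receptor of the other population, had r = 0.939 with Gpr6 (adjusted p = 0.00035), 0.925 with Adora2a (adjusted p = 0.000575) and 0.87 with Drd2 (adjusted p = 0.00075). Without those 2 arrays these were 0.801, 0.705 and 0.643. Ppp1r1b and Rgs9, the intracellular proteins, had r = 0.908 (adjusted p = 0.00035) and 0.763 without the 2 arrays.

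The weakest pairs rested on the extreme arrays. Drd1 and Rgs9 had r = 0.672 (adjusted p = 0.0189) and rho = 0.476 (adjusted p = 0.122), and r = -0.0015 without the 2 arrays. Gpr6 and Rgs9 went with r = 0.688, rho = 0.517 (adjusted p = 0.0955) and r = 0.087 without them, and Drd1 and Ppp1r1b with 0.779, 0.538 (adjusted p = 0.0876) and 0.192. Over the 15 pairs, r without the 2 arrays had a median of 0.635. With the mean of each treatment and time removed, r ran from 0.644 (Drd2 and Ppp1r1b) to 0.977 (Adora2a and Gpr6), with a median of 0.788. Each group held 2 septum arrays, so its 2 deviations mirror each other. In the mean of the 6 genes, replicates lay widest apart in Sham AM (-1.29 and -0.0022) and ADX PM (1.05 and 0.433). The extreme arrays thus weigh on this r too. The 2 replicates differed in the same direction for all 6 genes in 2 of the 6 groups, ADX PM and Sham AM, which hold the extreme arrays. In the other 4 groups the directions were mixed.

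The same 15 pairs were not uniformly positive elsewhere. The median r was 0.108 in the amygdala, 0.140 in the frontal cortex, -0.101 in the hypothalamus, 0.245 in the hippocampus, 0.017 in the dorsal raphe and 0.0255 in the locus coeruleus. In the amygdala, hippocampus, dorsal raphe and locus coeruleus only 10 pairs could be computed, since Gpr6 was at the floor in every array. The hypothalamus had 5 of 15 positive pairs, from -0.590 to 0.285. Low signals limit these values for Adora2a and Gpr6, and the difference in r between regions was not tested.

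**Figure D3:**
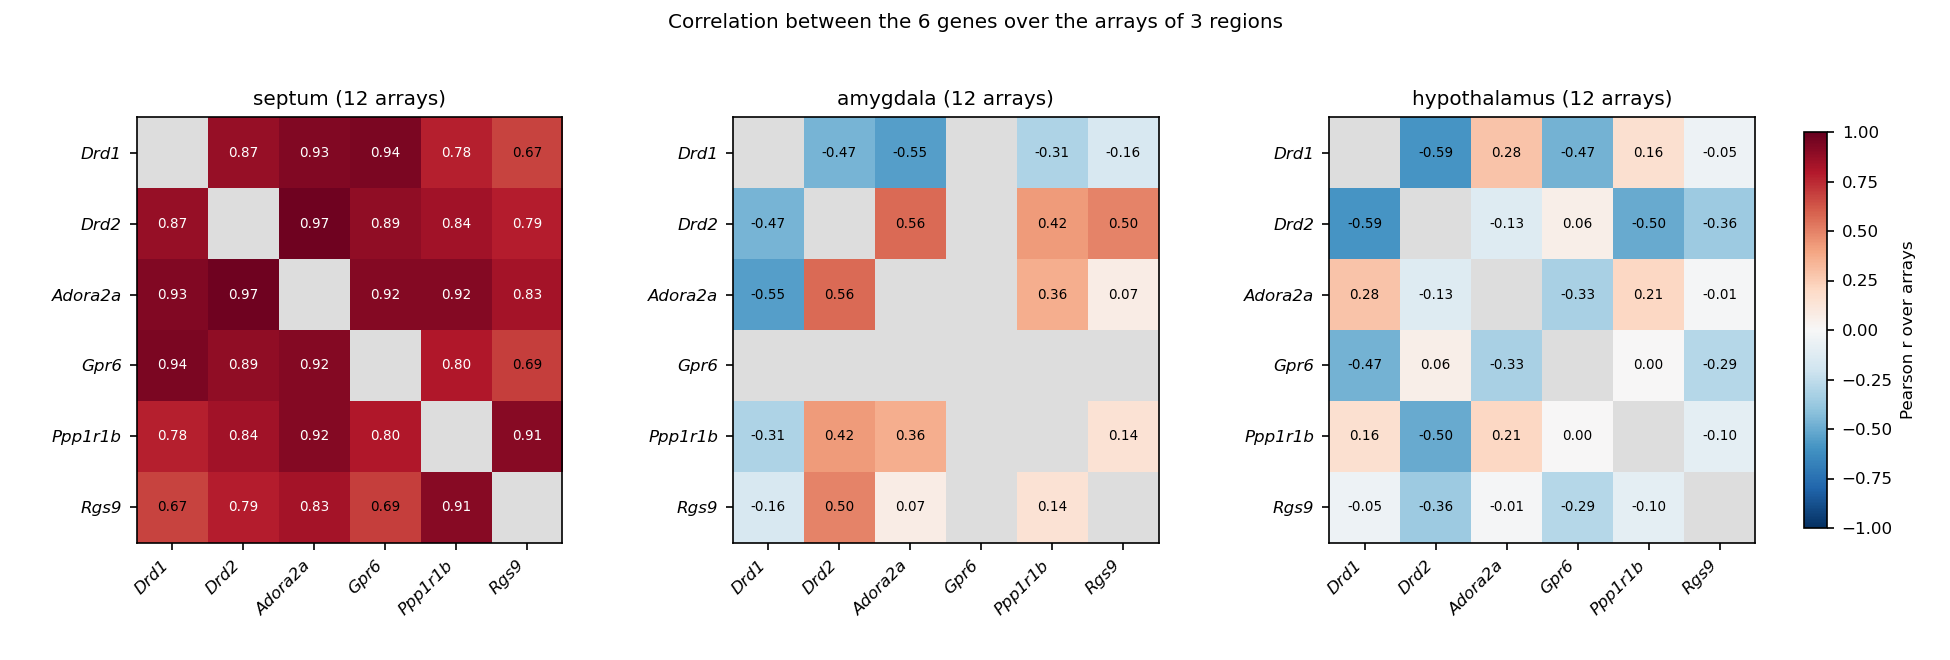
Pearson r between each pair of the 6 genes over 12 arrays each of the septum, the amygdala and the hypothalamus (colour from -1 to 1, value in each cell; grey cells are a gene with itself or with Gpr6 where it was at the floor throughout). All 15 septum cells are positive, from 0.67 to 0.97, while the amygdala (10 pairs, median 0.11) and the hypothalamus (15 pairs, median -0.10) hold both signs.

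Measures of array quality did not follow the 6 genes closely in the septum. The mean deviation of the 6 genes had r = 0.034 with the ratio of 3′ to 5′ GAPDH signal, -0.110 with that of beta-actin and 0.257 with the median deposited signal (n = 12 arrays each, given as a description). All 12 septum arrays were on the common scale, and r between any pair of them over all probe sets lay between 0.976 and 0.988.

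Other genes of striatal projection neurons followed the 6. The list held 31 genes and was chosen with earlier results of these data known, so its values are a description and no independent check. Of them 27 were measured. Their r with the mean deviation of the 6 genes over the septum arrays had a median of 0.748. In 16 of 27 r was at least 0.7, where 1.66% of 18625 probe sets reached that value and the median was -0.0136. The closest were Rarb (0.971), a retinoic acid receptor, Pdyn (0.962), the dynorphin precursor of D1-type cells, Scn4b (0.934), a sodium channel subunit, and Rasgrp2 (0.927). Penk, the enkephalin precursor of D2-type cells, had 0.864 and Tac1, the substance P precursor, 0.737. Cnr1, the cannabinoid receptor gene, had -0.656 and Isl1 -0.357. For Arpp21 the listed probe set had -0.161 while another had a mean r of 0.868 with the 6 genes, so its probe sets disagree.

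These genes resembled the 6 across regions as well. In the septum 21 of 27 were higher than in the amygdala and 2 were lower (Arpp21 and Cnr1), and 10 of 27 were higher in the septum than in each of the 6 other regions, as were 1.37% of all probe sets. Rarb averaged 8.18 in the septum and 6.0 in the amygdala, and Pdyn 8.70 and 6.72. The summed level of the list ran from 13.1 to 13.9 over the septum arrays. In bulk tissue, fewer cells of a type and less RNA per cell cannot be told apart, and the part of striatal tissue in the variation of the 6 genes was not tested.

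Lists for other cells and regions did not rise with the 6 genes, and those of thalamus and oligodendrocytes tended to run the other way. The septum and basal forebrain markers had a median r of 0.0194, with 0 of 10 at 0.7 or more, and their summed level ran from 9.55 to 10.6. This median covers both signs, from -0.487 (Trpc4) to 0.442 (Dlk1), with Zic1 at -0.451 and Slc5a7 at 0.315. Cortical projection neuron markers had -0.235 (0 of 8 at 0.7 or more, summed level 11.4 to 12.3), and choroid plexus and ependyma markers 0.0771 (0 of 6, 7.95 to 12.7). Thalamus markers had a median of -0.354, with Slc17a6 at -0.719, and oligodendrocyte markers -0.466, with Mal at -0.843 and Mog at -0.718 among 7. The summed level of the oligodendrocyte markers ran only from 13.8 to 14.1, and that of the thalamus markers from 9.67 to 10.4. These summed levels had r = -0.645 and -0.615 with the mean deviation of the 6 genes. At -0.7 or less stood 2 of 7 oligodendrocyte and 1 of 6 thalamus markers, where 0.913% of 18625 probe sets did.

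**Figure D4:**
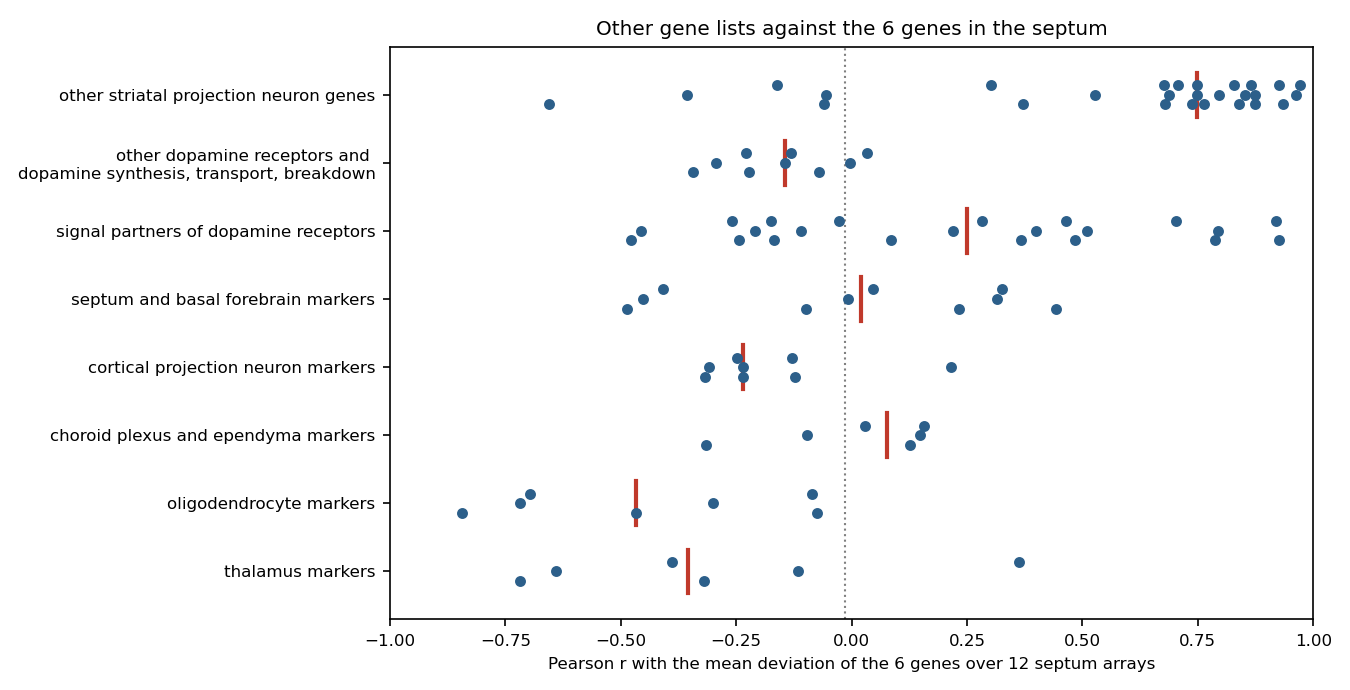
Pearson r (horizontal axis) of single genes with the mean deviation of the 6 genes over the 12 septum arrays, by gene list (rows); each point is a gene, a red bar marks the list's median and the dotted line the median of 18625 probe sets. The striatal list has a median of 0.75, that of the septum markers is 0.02 and that of the oligodendrocyte markers -0.47.

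Among the dopamine genes beside Drd1 and Drd2 no such pattern was seen. Drd3 and Drd5, the other receptors of the D2 and D1 types, were at the floor in 12 of 12 septum arrays, and Drd4 in 5 of 12. The 9 genes of dopamine receptors, synthesis, transport and breakdown for which r could be computed had a median of -0.144, from -0.344 (the vesicular transporter gene Slc18a2) to 0.0336 (Ddc). Low signals limit several of these values. Gch1 was at the floor in 11 of 12 septum arrays, Slc6a3 in 9 and Dbh in 8. Of 22 measured signal partners of the receptors, 5 had r of at least 0.7. They were Gnb5 (0.926), the G protein subunit that binds RGS9, Prkar2b (0.919), a regulatory subunit of protein kinase A, Pde4b (0.794), a cyclic AMP phosphodiesterase, Ppp1ca (0.788), the catalytic subunit that the Ppp1r1b product inhibits, and Ppp1r2 (0.703). The median of the list was 0.25.

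By mean r with the 6 genes over the septum arrays, the 10 most similar genes outside them were Rarb (0.905), Pdyn (0.899), Rab40b (0.884), Gpr149 (0.879), Scn4b (0.872), Foxp1 (0.872), Rasgrp2 (0.871), Tpd52l1 (0.869), Arpp21 (0.868) and Trim37 (0.868). The 5 with the lowest mean r were Rnf111 (-0.880), Slc6a8 (-0.835), Stxbp3 (-0.809), Mal (-0.798) and Limch1 (-0.779). Of 13946 probe sets compared, 1.13% had a mean r of at least 0.7 and 0.437% of at most -0.7. Over the 80 arrays of all regions the highest were Tbc1d10c (0.772), Rarb (0.752), Cdca7 (0.714), Ect2 (0.689), Mki67 (0.688), Cdk1 (0.680), Ptpn5 (0.680), Gad1 (0.677), Krt71 (0.668) and Pclaf (0.665). Regions dominate those values, and the points share treatment and time. Rarb stood in both rankings.

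Taken gene by gene over the 80 arrays, the closest pattern differed between the 6. Drd1 was nearest to LOC100912227 (0.898), Ankrd63 (0.881) and Dlx5 (0.879), and Drd2 to Tac1 (0.877), Slc32a1 (0.875) and Ntn1 (0.859). Adora2a was nearest to Tbc1d10c (0.918), Rarb (0.880) and Cdca7 (0.862), and Gpr6 to Tbc1d10c (0.984), Rarb (0.940) and Ect2 (0.877). Ppp1r1b was nearest to Rasd2 (0.827), Adcy5 (0.804) and LOC100912227 (0.790), and Rgs9 to Rarb (0.801), Khdrbs1 (0.794) and Kcna5 (0.776). Adora2a and Gpr6 thus shared their closest pair of genes, and Drd2 shared none with the other five.

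The next comparisons asked whether treatment or time of day changed the genes across the brain. Values of 5 regions were averaged into 12 units of treatment, time and replicate, and limma called 0 of 6 genes in each comparison. The share of all probe sets called was 0.132% for ADX against Sham, 0.00644% for pADX against Sham, 0.0483% for ADX against pADX and 0.00966% for PM against AM. At an unadjusted p under 0.05, 1 gene stood in each of the first 3 comparisons and 0 in PM against AM, where 9.02%, 7.70%, 8.02% and 10.4% of all probe sets did. These comparisons share their Sham or ADX units.

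Ppp1r1b had the lowest unit mean in ADX: 7.09 ± 0.28 in ADX, 7.5 ± 0.09 in pADX and 7.37 ± 0.11 in Sham (SD, n = 4 units each). ADX minus Sham was -0.28 (SE 0.11, limma adjusted p = 0.518) and ADX minus pADX -0.41 (SE 0.11, adjusted p = 0.402). On the deposited values, where the median of all probe sets was -0.21 for ADX minus Sham and -0.12 for ADX minus pADX, they were -0.57 (adjusted p = 0.00361) and -0.57 (adjusted p = 0.0237). Rgs9 averaged 6.32 ± 0.10 in ADX, 6.42 ± 0.06 in pADX and 6.16 ± 0.14 in Sham, with pADX minus Sham at 0.26 (SE 0.08, adjusted p = 0.49). Drd1 was 0.05 (adjusted p = 0.903) for ADX minus Sham, and -0.24 on the deposited values (adjusted p = 0.0159), close to their median of all probe sets. The other members lay between -0.08 and 0.19 for the 3 treatment comparisons.

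Within single regions limma called 0 of 42 tests of a gene in a region for ADX against Sham, where 0.0110% of all tests were called. For pADX against Sham it called 0 of 42, with 0.00322% of all tests, for ADX against pADX 0 of 42, with 0.0101%, and for PM against AM 0 of 42, with 0.00184%. In the septum all 6 genes had a positive difference for ADX minus Sham, with a median of 0.69, and for pADX minus Sham, with a median of 0.65, both with a median of 0 over all probe sets. At an unadjusted p under 0.05 stood 4 of 6 genes in each, against 10.2% and 5.45% of all probe sets. Both use the same 4 Sham arrays. The 6 genes varied together over the septum arrays, so these counts are not counts of independent genes.

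The array values for Ppp1r1b in the septum did not overlap between ADX (8.64 to 10.07) and Sham (7.59 to 8.55). This held for 1 of 6 genes, and 4.88% of all probe sets had no overlap there, while for pADX and Sham it held for 2 of 6 genes and 2.57% of all probe sets. ADX minus Sham was 1.05 (SE 0.30, adjusted p = 0.264), and pADX minus Sham was 0.81 (SE 0.30, adjusted p = 0.875). For Adora2a the 4 pADX arrays (7.03 to 7.26) lay above the 4 Sham arrays (5.28 to 6.81), with pADX minus Sham at 0.81 (SE 0.31, adjusted p = 0.887) and ADX minus Sham at 0.94 (SE 0.31, adjusted p = 0.332). Drd2 did likewise in pADX (6.77 to 6.91) against Sham (5.49 to 6.52), at 0.60 (SE 0.21, adjusted p = 0.85). ADX minus Sham was 0.80 for Rgs9 (SE 0.25, adjusted p = 0.302), 0.59 for Gpr6 (SE 0.53), 0.54 for Drd2 (SE 0.21) and 0.37 for Drd1 (SE 0.27). All of these stayed above the threshold after adjustment.

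ADX PM replicate 1 and Sham AM replicate 1 weighed on these values. Without them, the median of the 6 genes was 0.32 for ADX minus Sham, with 4 positive and 2 negative differences, Ppp1r1b at 0.61 (adjusted p = 0.734), Drd1 at -0.10 and Gpr6 at -0.27. For pADX minus Sham it was 0.44, with 6 positive differences. PM minus AM in the septum was positive for 6 of 6 genes over all arrays, from 0.14 for Rgs9 to 0.69 for Gpr6, with adjusted p from 0.557 to 0.957. Without the 2 arrays it was positive for 5 of 6, with a median of 0.16.

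Levels of other marker lists in the septum are given beside these differences. The median of ADX minus Sham over all probe sets was 0. The summed level of the other striatal list ran from 13.3 to 13.9 in ADX and from 13.1 to 13.5 in Sham, with 21 of 27 genes above Sham. That of the thalamus markers ran from 9.669 to 9.996 in ADX and from 9.946 to 10.42 in Sham, with 0 of 6 markers above Sham. Among them Prkcd stood at -0.71 (adjusted p = 0.164). Prkcd had the highest septum mean of the 6 (8.44) and was higher in the septum than in each of the 6 other regions. It thus does not stand for thalamus alone here. Of the 6 markers, 2 were higher and 3 lower in the septum than in the amygdala. The summed level of the oligodendrocyte markers ran from 13.84 to 14.04 in ADX and from 13.88 to 14.1 in Sham, with 2 of 7 markers above Sham. Mal stood at -0.39 (adjusted p = 0.16) and Mobp at -0.29 (adjusted p = 0.135). Of the choroid plexus and ependyma markers 0 of 6 were above Sham. The summed level of the septum and basal forebrain markers ran from 9.547 to 10.19 in ADX and from 9.917 to 10.35 in Sham. Of these markers 5 of 10 were above Sham. Zic2 stood at -0.73 (limma adjusted p = 0.485), Trpc4 at -0.70 (0.299), Zic1 at -0.33 (0.446) and Dlk1 at 0.37 (0.705). The part of these cells in the differences of the 6 genes was not tested.

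Outside the septum Ppp1r1b in ADX was below Sham in each of the 6 other regions, as it was for 1 of 6 genes and 2.55% of all probe sets. It was also below pADX in each of them, from -0.64 to -0.30, as were 2.37% of all probe sets. The regions share the combinations of treatment, time and replicate, so they are not independent, and no single difference passed. Its values in the locus coeruleus were 5.72, 5.96, 6.04 and 6.42 in ADX and 6.86, 6.37, 6.69 and 6.61 in Sham, with 1 ADX array above the lowest Sham array. The difference was -0.60 (SE 0.15, adjusted p = 0.537). In the dorsal raphe the ADX arrays read 5.78, 7.37, 5.77 and 6.67 and the Sham arrays 7.16, 7.27, 6.77 and 7.01, which overlapped (-0.65, SE 0.32). In the amygdala ADX read 7.76, 6.67, 7.36 and 6.86 and Sham 7.85, 7.34, 8.54 and 7.78, which overlapped too (-0.71, SE 0.33). Differences were -0.49 in the hypothalamus, -0.39 in the hippocampus, where ADX (6.89 to 7.04) and Sham (7.07 to 7.84) did not overlap, and -0.36 in the frontal cortex. In the locus coeruleus 0 of 4 ADX and 4 of 4 Sham arrays were deposited on the common scale, so scale and treatment cannot be told apart there. The amygdala arrays all share it.

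Over the 7 regions, arrays of ADX and Sham did not overlap in 3 of 42 tests of a gene in a region, where 4.91% of all tests had no overlap, and those of pADX and Sham in 4 of 42, where 4.21% had none. Beside those named above, 3 of these lay outside the septum, and none passed. Drd2 in the dorsal raphe ran from 6.45 to 6.75 in ADX and from 6.27 to 6.41 in Sham, a difference of 0.23 (SE 0.13, adjusted p = 0.766). Rgs9 in the hypothalamus read 6.77, 6.74, 6.94 and 6.79 in pADX and 6.53, 6.49, 6.44 and 6.32 in Sham, with no overlap. The difference was 0.37 (SE 0.07, adjusted p = 0.488). Adora2a in the amygdala was at the floor in 4 of 4 pADX arrays and read 5.13, 5.62, 6.03 and 4.15 in Sham, a difference of -1.23 (SE 0.37, adjusted p = 0.518) whose size the floor limits.

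The last comparisons asked whether a treatment or time difference varied between regions, by an interaction F test over the 80 arrays in limma. For ADX against Sham it passed for 2 of 6 genes, Ppp1r1b (adjusted p = 0.0178) and Rgs9 (adjusted p = 0.0245), where 3.08% of all probe sets passed. For pADX against Sham it passed for 1 of 6, Adora2a (adjusted p = 0.00732), where 1.55% did. For PM against AM it passed for 0 of 6, where 0.312% did, with Adora2a at 0.117 and Drd1 at 0.154. Adora2a had an adjusted p of 0.0676 for ADX, and its second probe set passed for ADX (7e-05) and for pADX (0.00292).

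The differences behind these calls were largest in the septum for Ppp1r1b, at 1.05 against -0.71 to -0.36 in the 6 other regions. Rgs9 stood at 0.80 in the septum and at -0.46 to 0.21 in the others for ADX minus Sham. With the arrays of the 6 other regions alone, neither gene passed (Ppp1r1b adjusted p = 1, Rgs9 0.322). Adora2a for pADX minus Sham stood at 0.81 in the septum, -1.23 in the amygdala and between -0.32 and 0.13 in the others, with amygdala pADX arrays at the floor. Its call held in those 6 regions alone.

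**Figure D5:**
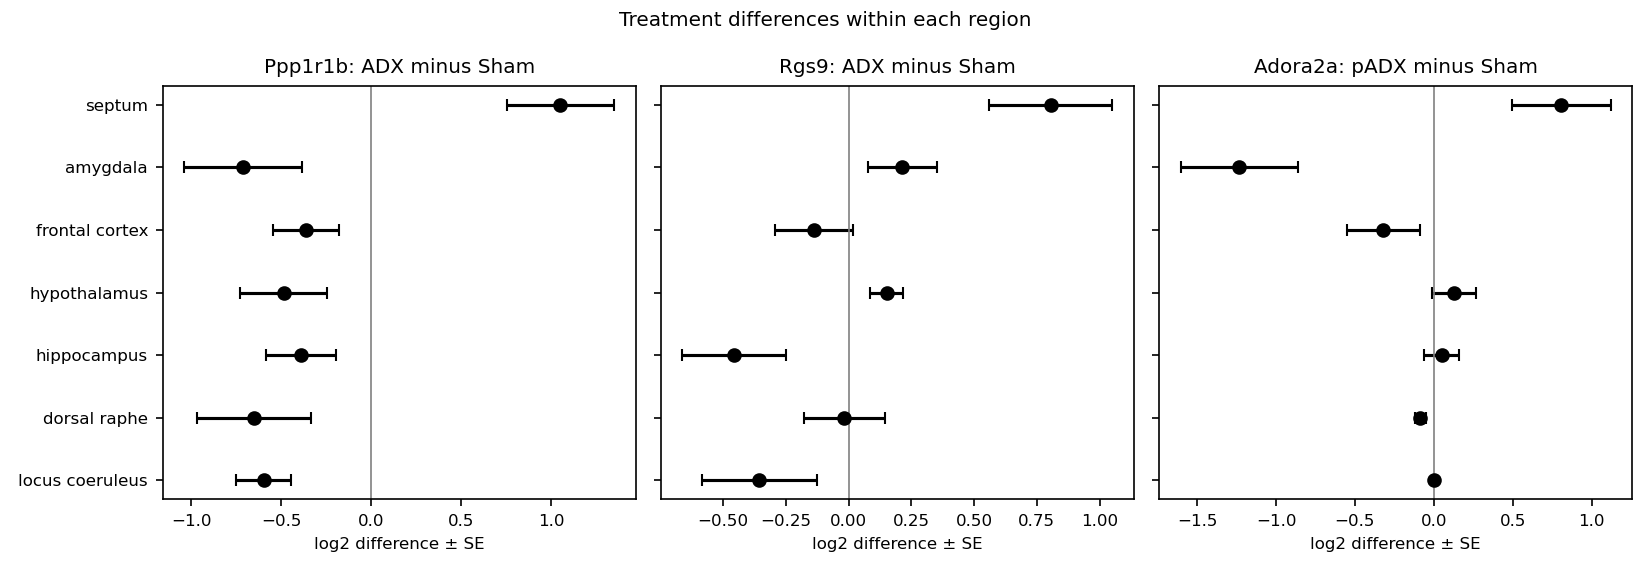
Log2 difference with its SE (horizontal axis) in each region (rows) for Ppp1r1b and Rgs9 as ADX minus Sham and Adora2a as pADX minus Sham, from the fit of each region alone. Ppp1r1b is at 1.05 in the septum and below 0 in the 6 other regions, and Adora2a at 0.81 in the septum and -1.23 in the amygdala.

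Single combinations of treatment, time and replicate decided these calls. The Ppp1r1b call was lost without ADX PM replicate 1 (adjusted p = 0.0761) or ADX AM replicate 2 (0.0676), and likewise without Sham PM replicate 2 (0.0989) or Sham AM replicate 1 (0.0956). The Rgs9 call was lost without 3 of the ADX combinations, PM replicate 1 (0.139), AM replicate 1 (0.117) and AM replicate 2 (0.0624), and without 2 of the Sham combinations, PM replicate 2 (0.1) and AM replicate 1 (0.0704). That of Adora2a for pADX was lost without pADX AM replicate 1 (0.091) or pADX AM replicate 2 (0.0541).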

How the data were processed

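Rat brain RNA was measured on 82 arrays. The authors deposited 1 linear intensity for each of 31099 probe sets and array. Software: not given in the sources used here. A common scale of 45 arrays was read from their trimmed means. From these intensities, log2 values were computed after quantile normalization over 82 arrays and a floor at 16 (log2 of 4), which held 27.5% of values. After removal of 57 control probe sets, 31042 were tested without a filter, using limma 3.58.1 (lmFit, eBayes with trend) in R 4.3.3, with a threshold of 0.05 on the Benjamini-Hochberg adjusted p over all of them. Scripts were tested on simulated data.

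Of the probe sets, 20826 had 1 gene symbol, 436 several and 9780 none; 20758 were matched to RefSeq of GRCr8 for current names. Regions were compared over 80 arrays with the 12 combinations of treatment, time and replicate as a block. Treatment and time were additive terms, over 12 units (means of 5 regions) and within each region. The interaction fit added region. A final b in a title marked replicate 2. The members and gene lists were chosen with earlier results of these data known. Genes named as most similar were the 10 with the highest and 5 with the lowest mean r in the septum, among probe sets above the 40th percentile there, the 10 highest over 80 arrays and the 3 highest for each member. Normalization, floor, filter on dim probe sets, block, trend and left-out arrays or units were varied. The number of arrays limits the precision.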

Additional observations from a re-analysis of the deposited data

Results flagged for a closer look

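In 119 groups of 4 to 10 arrays, single arrays of the 6 genes were checked for standing apart from the rest of their group, and 15 did. For normally distributed values, chance alone would flag about 1 in 20 groups. That rate does not hold here, because groups share arrays and some lie at the floor. A single array above an otherwise floored group is always flagged. In septum Sham, AM replicate 1 lay below the other 3 arrays for Adora2a (5.28), Drd1 (7.68) and Drd2 (5.49). In hypothalamus ADX, AM replicate 1 was high for Drd2 (6.30) and PM replicate 1 low for Rgs9 (6.4), and amygdala Sham PM replicate 1 was low for Rgs9 (5.77). Drd1 was low in frontal cortex pADX AM replicate 1 (6.35) and, among all 10 frontal cortex arrays, in Sham PM replicate 1 (5.98).

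The others were arrays just above a group at or near the floor. They were Adora2a in frontal cortex pADX AM replicate 2 (4.63), hippocampus Sham PM replicate 2 (4.05), hippocampus ADX AM replicate 1 (4.44) and locus coeruleus ADX AM replicate 2 (4.01), and Gpr6 in hypothalamus ADX AM replicate 2 (4.11), hypothalamus Sham AM replicate 2 (4.57) and frontal cortex Sham AM replicate 2 (4.21).

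An interaction test found that a treatment difference varied between regions for Ppp1r1b (ADX against Sham, limma adjusted p = 0.0178), Rgs9 (ADX against Sham, 0.0245) and Adora2a (pADX against Sham, 0.00732).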

How the results depend on the processing

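The 80 region differences that passed numbered 76 to 80 with 1 combination of treatment, time and replicate left out, and the counts of 0 for treatment and time stayed at 0 when single units or arrays were left out. The interaction counts ran from 0 to 2 for ADX, 0 to 1 for pADX and 0 to 1 for PM against AM, and the median septum r from 0.777 to 0.912. As deposited, ADX against Sham called 2 members across regions (Drd1, which reversed to -0.24, and Ppp1r1b) and 3 tests within regions (Drd1 at -0.68 and Ppp1r1b at -1.20 in the dorsal raphe, Ppp1r1b at -1.11 in the locus coeruleus), against medians of all probe sets of -0.44 and -0.42 there, and ADX against pADX called 1 (Ppp1r1b). Rgs9 in amygdala minus hypothalamus reversed to 0.0472. For pADX by region 2 members passed with a floor of 32, and 0 with dim probe sets left out, a filter that did not keep Adora2a or Gpr6. For ADX by region 0 passed in the 6 other regions alone. Without the lowest and highest septum array the median r was 0.635, and r of Drd1 and Rgs9 reversed to -0.0015. The cause of these changes was not tested.

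Arrays of the same replicate number showed no strong shared deviation. Over 39 groups of 2, r of same-numbered deviations ran from -0.235 to 0.219, with 60 of 741 pairs over 0.1. These values cannot show whether such arrays came from the same animals. With the replicate block 0 members passed in each treatment and time comparison, and without it 80 region differences did. Uncalled differences changed sign in 37 region, 38 across-region and 155 within-region settings.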

Other observations

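The 2 frontal cortex arrays to which the labels give no treatment entered no comparison. Drd1 read 6.25 and 6.14 in them, Drd2 4.96 and 4.64, Adora2a 4.72 and the floor of 4, Ppp1r1b 7.45 and 7.5, and Rgs9 5.77 and 5.77, and Gpr6 was at the floor in both.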
